A study of Homo sapiens with 4 samples.

Results

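FCGBP, TBX4, SYTL2 and FAM154B are 4 of the 57773 genes listed for the human ovarian cancer line A2780, an established cell line, and of the 13449 genes with enough exon reads to be tested. They were chosen on measured values: each stood at a low level in cells given the vehicle DMSO and was among the genes with the largest rises in exon reads after wogonin. The comparison of wogonin with DMSO is therefore what picked them, so their own values are given as a description, with no test. RNA was sequenced in 2 libraries from DMSO cells (DMSO 1 and 2) and 2 from cells given wogonin, a plant flavone, at 10 ug/mL for 48 h (wogonin 3 and 4). The labels give the genotype WT for all 4 libraries and no treatment time for DMSO. The study asked whether wogonin limits ovarian cancer growth by way of DNA demethylation, and these libraries hold transcript levels only.

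The 4 genes have unrelated roles. FCGBP encodes a large secreted protein of mucus, built of repeated von Willebrand D domains and known from goblet cells, where it sits in the mucin gel. TBX4 is a T-box transcription factor of the embryonic hindlimb and lung mesenchyme, and lies beside its relative TBX2. SYTL2 (also called SLP2A) is a synaptotagmin-like protein that binds RAB27 on secretory vesicles and membrane lipids through its C2 domains, and so helps vesicles dock. FAM154B, now named SAXO2, belongs to a small family of proteins that bind and stabilise the microtubules of the ciliary axoneme. Genes of this kind are often held low outside their own tissue. DNA methylation falls on CpG pairs, and it was not measured in these libraries.

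Sequence near the start was looked up in RefSeq for GRCh38.p14, a later build than that of the count tables, and was found for 3 of the 4 genes. It is shown here because the study's question concerns methylation, which falls on CpG, and the 3 genes differ widely in CpG. Capitals mark CpG. Only bases upstream of the listed start and outside annotated exons are printed, each on the strand of the gene.
FCGBP (chr19:39934635-39934884, minus strand): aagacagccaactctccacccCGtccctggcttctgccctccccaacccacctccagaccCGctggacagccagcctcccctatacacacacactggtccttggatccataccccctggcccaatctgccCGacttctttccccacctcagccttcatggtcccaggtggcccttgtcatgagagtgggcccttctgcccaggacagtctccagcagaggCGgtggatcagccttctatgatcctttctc
TBX4 (chr17:61456238-61456445, plus strand): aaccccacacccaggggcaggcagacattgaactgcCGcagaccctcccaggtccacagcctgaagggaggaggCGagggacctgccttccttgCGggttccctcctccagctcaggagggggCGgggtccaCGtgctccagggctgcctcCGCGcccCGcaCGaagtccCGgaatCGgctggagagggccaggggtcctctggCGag
FAM154B (chr15:82262764-82262809, plus strand): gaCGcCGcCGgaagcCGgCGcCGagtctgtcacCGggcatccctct

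In the whole 250 bases upstream, FCGBP had 4 CpG, TBX4 had 15 and FAM154B had 27. The median over 27305 promoter windows of that length was 11, with quartiles of 3 and 23, so FCGBP lay in the lower part and FAM154B above the upper quartile. The listed TBX4 start lies 4066 bases inside the RefSeq gene, so its window is not the region before the first exon. The FAM154B window covers the start of EFTUD1 (now EFL1) on the opposite strand, and the bases printed are the gap between the exons of both genes. Letters were searched on both strands. The CACGTG box stood once in the TBX4 window and in 6.49% of all windows. GGGCGG stood in those of TBX4 and FAM154B and in 42.3% of all windows. CCAAT stood in that of FCGBP (33.0% of windows), and GCGTG in that of FAM154B (31.9%). None of the motifs searched lies within another. The other motifs searched matched in none of the 3 windows: the TATA box TATAAA (found in 11.1% of all windows), the CRE motif TGACGTCA (1.77%), the AP-1 motif TGANTCA (6.6%), the forkhead motif GTAAACA (2.98%) and the T-box motif AGGTGTGA (0.787%). A match is a description of the letters and not a site.

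The libraries held between 11005921 and 11839562 exon reads. Within groups they were alike but were not copies, and wogonin 3 had the highest intron share (7.96% of the reads of genes with exons, 5.26% to 5.61% elsewhere). Wogonin 4 had the highest mitochondrial share, 3.03% of exon reads against 1.45% to 1.67%. Whether the libraries within a group are separate cultures is not stated by the labels, so SDs and p-values measure the spread between these libraries, which may be technical. The label calls the cells ovarian adenocarcinoma, but most epithelial and ovarian markers were all but absent. PAX8, WT1, KRT7 and KRT19 were at no more than 0.169 TPM in any library (TPM scales reads by exon length and to a fixed library total), and MUC16 and WFDC2 had no read. Of 12 such markers, 1 passed the filter on low counts, ARID1A, which is widely expressed. EPCAM was the next highest, at 1.14 and 1.26 TPM in DMSO and 0.591 and 0.277 TPM in wogonin. Of 6 stromal markers, the collagen gene COL3A1 stood at 331 to 474 TPM, and COL1A1, COL1A2, DCN, LUM and PDGFRB were at 5.56 TPM or less. Of 8 immune markers, CD68 was at 26.3 to 40.9 TPM and made up most of their summed level of 26.7 to 42.1 TPM, and PTPRC and CD3E had no exon read. The endothelial markers CDH5 and VWF had none either.

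FCGBP (ENSG00000090920, GRCh37 chromosome 19, 40353963 to 40440533, minus strand) showed the largest difference of the 4 genes. Exon reads numbered 44 and 27 in the DMSO libraries, against 723 and 583 with wogonin (libraries 3 and 4 in that order). In CPM, counts scaled to a common library size with TMM factors, that was 3.73 and 2.20 against 67.5 and 53.7. Both wogonin libraries stood far above both DMSO libraries, and the spread within each group was small beside the gap. The means were 2.97 ± 1.08 and 60.6 ± 9.71 CPM (SD, n = 2). On the log2 scale they differed by 4.35 ± 0.20 (SE), or 20.4-fold. In bulk RNA, more cells that express a gene and more RNA per cell cannot be told apart. Of 11 markers of goblet or mucous cells, MUC5AC, TFF1, TFF2, TFF3, CLCA1 and ZG16 had no exon read in any library. The summed level of the 11 was 0.380 to 0.828 TPM in DMSO and 0.605 to 1.16 TPM in wogonin, and its part in the FCGBP values was not tested.

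TBX4 (ENSG00000121075, chromosome 17, 59529765 to 59562471, plus strand) had 32 and 36 exon reads in DMSO and 289 and 263 in wogonin. Its level was 2.71 and 2.94 CPM in DMSO and 27.0 and 24.2 CPM in wogonin, the tightest DMSO pair of the 4 genes. The log2 fold change was 3.17 ± 0.16 (SE), or 9.03-fold.

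SYTL2 (ENSG00000137501, chromosome 11, 85405267 to 85522184, minus strand) had 37 and 28 exon reads in DMSO and 219 and 237 in wogonin. That was 3.14 and 2.28 CPM against 20.4 and 21.8 CPM, with no overlap. The difference was 2.96 ± 0.18 on the log2 scale (SE), or 7.79-fold. The deposited tables list 30 transcripts for this gene. None was uniquely identified in either DMSO library, and 2 and 3 were in wogonin 3 and 4. The DMSO libraries held far fewer reads of the gene, and the part of read number in this was not tested.

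FAM154B (ENSG00000188659, chromosome 15, 82555151 to 82577271, plus strand) had 31 and 27 exon reads in DMSO and 190 and 211 in wogonin. Its level went from 2.63 and 2.20 CPM to 17.7 and 19.5 CPM, a log2 fold change of 2.94 ± 0.18 (SE), or 7.68-fold. The summed level of 10 markers of multiciliated cells was 22.2 to 26.7 TPM in DMSO and 26.7 to 28.4 TPM in wogonin, and CCNO alone held 11.5 to 16.1 TPM of it. FOXJ1, the master factor of motile cilia, was at 0.282 TPM or less in each library, and PIFO had no read. RSPH1, a radial spoke gene, went from 2.16 and 2.83 to 5.23 and 3.85 TPM, and CAPS from 1.75 and 1.46 to 2.81 and 3.66 TPM. Both were called higher by edgeR (adjusted p = 0.013 and 0.0063) but not by DESeq2 (adjusted p = 0.11 and 0.068). Both edgeR calls were lost without some single libraries: RSPH1 without DMSO 1 or wogonin 3 (adjusted p = 0.11 in each), and CAPS without DMSO 2 or wogonin 4 (adjusted p = 0.070 and 0.081). Other markers of the list were not called: MCIDAS (5.15 and 4.55 against 6.05 and 6.66 TPM), CCNO (16.1 and 12.1 against 11.5 and 13.3 TPM) and DNAH5 (0.371 and 0.599 against 0.293 and 0.296 TPM). Among other radial spoke genes, edgeR called RSPH3 higher (log2 fold change 0.35) and RSPH4A (-1.51) and RSPH9 (-1.21) lower. DESeq2 did not call RSPH4A or RSPH9 (adjusted p = 0.061 and 0.077), and RSPH4A passed the filter through DMSO alone. In edgeR the RSPH4A call was also lost without DMSO 2 (log2 fold change -1.02) and in total gene reads (adjusted p = 0.075). The RSPH9 call was lost without DMSO 1 or wogonin 4 (log2 fold change -0.68 and -0.91). In total gene reads RSPH9 stood at 0.0025 on the log2 scale and was not called. The part of the multiciliated markers in the FAM154B values was not tested.

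**Figure D1:**
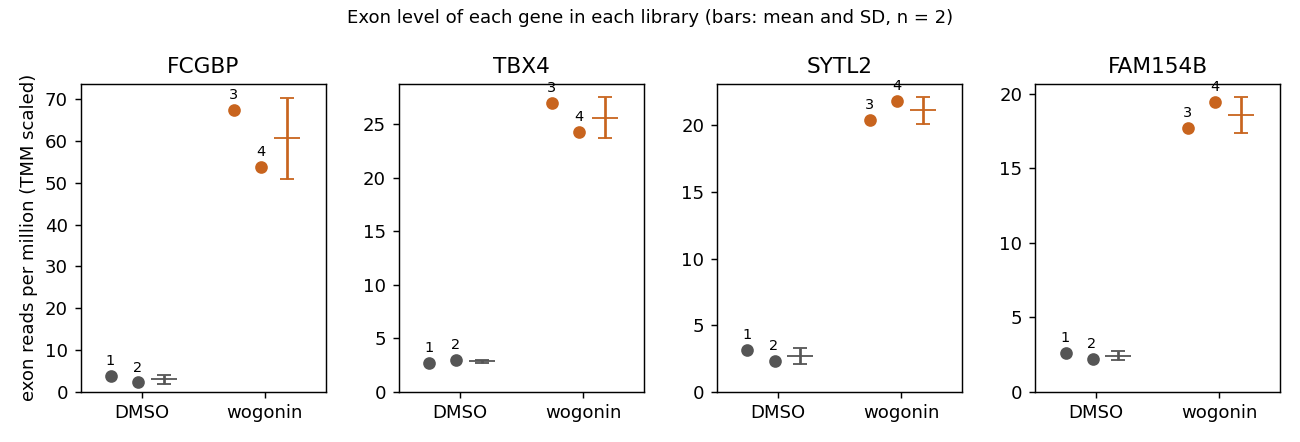
Exon level of FCGBP, TBX4, SYTL2 and FAM154B in TMM-scaled CPM, with 1 point per library (numbers give the replicate) and the mean and SD of each group (n = 2). The 4 vertical scales differ, and in each panel both DMSO points lie under 4 CPM and both wogonin points above 17 CPM.

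The name near-silent holds for these genes as a low level, not as silence. Every DMSO library held between 27 and 44 exon reads of each gene, well above the floor of 3 counts (0.253 to 0.261 CPM). Per length, their DMSO levels ran from 0.575 to 3.18 TPM, against a median of 28.7 TPM over the genes tested, and they exceeded between 2.13% and 11.7% of those genes. Among all listed genes with exons, most of which did not pass the filter, the same levels exceeded between 59.2% and 67.1%. In wogonin they ran from 7.24 to 26.9 TPM and exceeded between 24.5% and 51.1% of genes. In DMSO the order by mean TPM was FCGBP (0.764 ± 0.269), SYTL2 (1.03 ± 0.22), FAM154B (2.48 ± 0.28) and TBX4 (3.03 ± 0.21). The libraries of FCGBP and SYTL2 overlapped there. In wogonin the order was SYTL2 (7.29 ± 0.07), FCGBP (14.2 ± 2.8), FAM154B (17.3 ± 0.5) and TBX4 (24.9 ± 2.8), and FCGBP and FAM154B were no further apart than about the SD of FCGBP.

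All 4 genes had both wogonin libraries above both DMSO libraries, as did 41.0% of the 13449 genes tested, and nothing is read from that count because the choice of the genes rests on it. All 4 would have passed the filter on their DMSO reads alone, which required at least 0.878 CPM in 2 libraries. Of 2464 tested genes with a DMSO mean under 5 CPM, 161 had a log2 fold change of 2.5 or more. In 148 of these the DMSO reads alone would not have passed, so such a gene had to be higher in wogonin to be tested at all. FCGBP, TBX4, SYTL2 and FAM154B are 4 of the other 13, and ranked 1, 3, 6 and 7 in log2 fold change among 1842 low genes that passed in DMSO alone. Over all 2464 low genes 640 were called higher and 545 lower (edgeR quasi-likelihood test, adjusted p under 0.05). Of these calls, 291 higher and all 545 lower were in the 1842 genes that passed in DMSO alone, and 349 higher and 0 lower in the other 622. The filter fixes that split in part, so no balance of directions is read from either set.

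**Figure D2:**
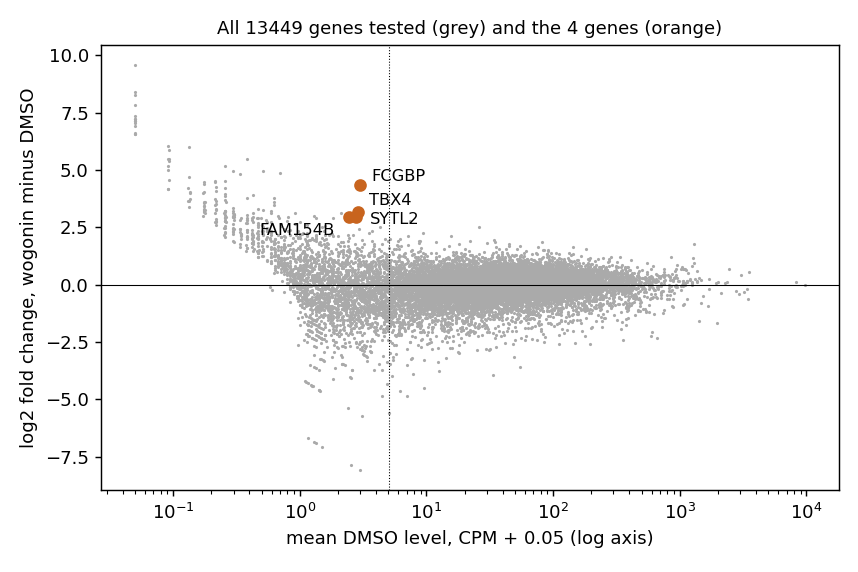
Log2 fold change of each of the 13449 genes tested (grey) against its mean DMSO level in CPM plus 0.05 on a log axis, with the 4 genes in orange and a dotted line at 5 CPM. The 4 genes lie between log2 fold changes of 2.94 and 4.35 at DMSO means of 2.42 to 2.97 CPM, where most genes lie near or below 0.

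Reads that span an exon-exon junction come from spliced RNA, and intron reads come mostly from unspliced RNA or from other transcripts in the intron. Both classes were higher in wogonin for all 4 genes. FCGBP had 6 and 10 exon-exon reads in DMSO and 233 and 190 in wogonin. TBX4 had 16 and 18 against 107 and 92, SYTL2 had 11 and 8 against 93 and 121, and FAM154B had 8 and 8 against 31 and 35. No pair of groups overlapped, but exon-exon reads are part of the exon reads that chose the genes, so nothing is read from that. Intron reads were few: 2 and 2 against 21 and 10 for FCGBP, and 2 and 6 against 27 and 17 for TBX4. SYTL2 had 6 and 9 intron reads against 63 and 42, and FAM154B had 12 and 16 against 45 and 22. In each gene wogonin 3, the library with the highest intron share of all genes, held more intron reads than wogonin 4, and its part in these values was not tested.

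Relative to all gene reads, and summed over the libraries of a group, exon reads of FCGBP were 18.9 times as many in wogonin (95% interval 14.9 to 24.4), exon-exon reads 27.2 times (16.5 to 48.0) and intron reads 7.97 times (2.82 to 31.1). These intervals are exact binomial ones and cover counting error only. For TBX4 the ratios were 8.35, 6.02 and 5.66. For SYTL2 they were 7.22, 11.6 and 7.20, so that exon and intron reads differed by nearly the same factor. For FAM154B the exon ratio was 7.11 (5.39 to 9.53), the exon-exon ratio 4.24 (2.43 to 7.85) and the intron ratio 2.46 (1.56 to 3.97). That intron ratio was the lowest of the 4, but its interval overlapped those of FCGBP and TBX4 (2.63 to 13.9), and the wogonin libraries behind it held 45 and 22 reads. These ratios come from the reads that chose the genes, and no difference between read classes was tested. Introns held 27.9% and 37.2% of the FAM154B gene reads in the DMSO libraries, and 19.1% and 9.44% in those from wogonin. The median over tested genes was 4.49% in DMSO and 6.23% in wogonin.

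**Figure D3:**
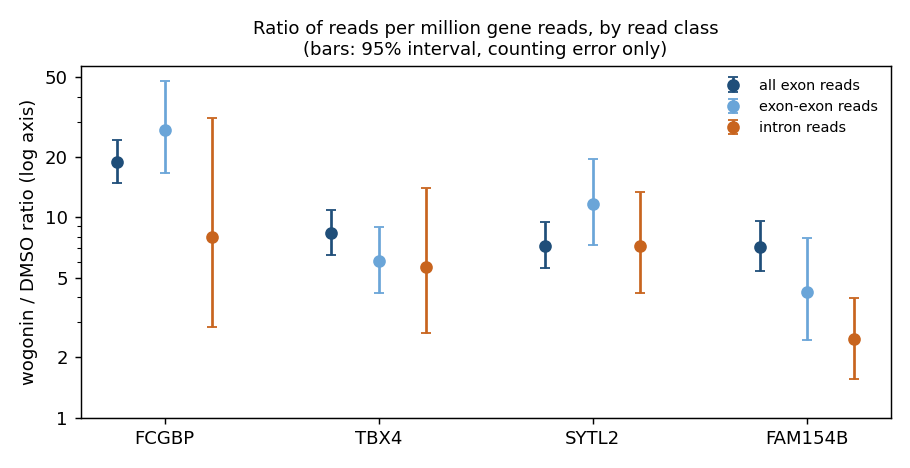
Ratio of wogonin to DMSO reads, each relative to all gene reads, on a log axis, for all exon reads, exon-exon reads and intron reads of each gene, with 95% intervals that cover counting error only. Every ratio lies above 1, and the lowest intron ratio is that of FAM154B, at 2.46.

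The genes also differed in how much of their exon signal crossed a junction. In wogonin 3 and 4 the share of exon reads on a junction was 32.2% and 32.6% for FCGBP, 37.0% and 35.0% for TBX4, 42.5% and 51.1% for SYTL2 and 16.3% and 16.6% for FAM154B. The median over tested genes was 41.2%, and FAM154B exceeded 21.0% of them. In DMSO the shares rest on few reads. For FCGBP they were 13.6% (95% Wilson interval 6.40 to 26.7%) and 37.0% (21.5 to 55.8%). The DMSO 1 interval lies below both wogonin values and the DMSO 2 interval holds both. The DMSO intervals overlap each other, so at that depth the DMSO share is known only roughly. Nearly all reads were placed uniquely. Only FAM154B in wogonin had exon reads placed in more than 1 location, 2 in each library.

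Genes beside the 4 were examined to see whether the difference ran across the neighbourhood. The 5 nearest tested genes on each side gave 40 flanking genes, of which 10 rose, 17 fell and 13 did not pass (edgeR adjusted p under 0.05). Over all genes tested 63.8% passed, 32.3% as higher and 31.5% as lower, so the flanking share of 67.5% was near the background. The median log2 fold change of the flanking genes was -0.25, and no flanking gene rose by as much as any of the 4. Nothing is read from that gap: the 4 were chosen for large rises, and only 162 of the 13449 genes tested reached 2.5. The largest rises among the flanking genes were those of CTC-471F3.5 beside FCGBP (1.81) and AP000974.1 beside SYTL2 (1.24), and the latter passed the filter through wogonin alone. The AP000974.1 call was lost with DESeq2 (adjusted p = 0.23) and in the edgeR fits without DMSO 1, DMSO 2 or wogonin 4, where adjusted p ran from 0.13 to 0.34.

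FAM154B has the closest neighbour. EFTUD1, a GTPase of ribosome assembly, begins 47 bases away on the opposite strand, so the 2 genes start on either side of the same short gap printed above. EFTUD1 had 461 and 495 exon reads in DMSO and 448 and 550 in wogonin, or 39.7 and 46.3 CPM on average. The estimate for EFTUD1 was 0.22 ± 0.10 on the log2 scale (SE), with an edgeR adjusted p = 0.066. It was called higher in unique exon reads (edgeR adjusted p = 0.038) and without wogonin 3 (log2 fold change 0.36). FAM154B, chosen for its large rise, stood at 2.94. Among the other flanks of FAM154B, MEX3B (-0.87), STARD5 (-1.20), RP11-761I4.3 (-1.72) and RP11-152F13.3 (-0.70) fell and MESDC1 rose (0.28). STARD5 and RP11-761I4.3 passed the filter through DMSO alone. The calls of STARD5, RP11-761I4.3 and MESDC1 were lost with DESeq2 (adjusted p = 0.15, 0.14 and 0.080), and each was also lost in edgeR fits without 1 library (adjusted p = 0.065 to 0.13, 0.092 to 0.16 and 0.074 to 0.080).

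SYTL2 lies 7947 bases from CCDC89, a gene on the same strand that changed in the opposite direction. CCDC89 had 80 and 102 exon reads in DMSO and 9 and 8 after wogonin. On the log2 scale that was -3.24 ± 0.31 (SE), and the gene passed the filter through the DMSO libraries alone. The mitochondrial assembly gene TMEM126A (-1.62), the scaffold gene DLG2 (-1.65) and the Polycomb subunit EED (-0.44) also fell. DLG2 had few exon reads beside its intron reads, and in total gene reads its value was 0.50 and called higher. PICALM (0.22), C11orf73 (0.38) and PRSS23 (0.65) rose. Each of these 3 calls was lost without DMSO 1 (log2 fold change 0.17, 0.29 and 0.55). The PICALM call was also lost when scaled by library totals or upper quartiles (edgeR adjusted p = 0.067 and 0.062). In total gene reads PICALM was not called either (edgeR adjusted p = 0.066).

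Next to TBX4, its paralog TBX2 was already high and moved little. Its mean CPM was 629 ± 52.8 under DMSO and 533 ± 52.3 under wogonin (SD, n = 2). TBX2 thus fell by 0.24 on the log2 scale (edgeR adjusted p = 0.017), and that result did not pass without DMSO 1 or without wogonin 3 (edgeR adjusted p = 0.16 and 0.11). BCAS3, the gene beyond it, fell by 1.25 on the log2 scale. BRIP1 (-0.56), a helicase of DNA repair, TLK2 (-0.51) and the phosphatase gene PPM1D (-0.43) also fell. METTL2A (0.81), MED13 (0.21) and RP11-332H18.4 (0.46) rose. The MED13 call was lost without DMSO 1 (log2 fold change 0.19). That of RP11-332H18.4 was lost without DMSO 2 or wogonin 3 (log2 fold change 0.26 and 0.33). MED13 was also not called when scaled by library totals or upper quartiles (edgeR adjusted p = 0.11 and 0.10). Nor was MED13 called by edgeR from total or unique gene reads (adjusted p = 0.38 and 0.31). RP11-332H18.4 was not called by DESeq2 (adjusted p = 0.094), nor by edgeR from unique gene reads (adjusted p = 0.17). RP11-15K2.2, an antisense gene that overlaps TBX4, had no read in any library.

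Around FCGBP, the kinase gene DYRK1B fell by 1.20 on the log2 scale, and EID2B (-0.75), EID2 (-0.33) and ZNF780B (-0.47) fell too. The proteasome gene PSMC4 rose by 0.41. FBL, which encodes fibrillarin and lies 16909 bases away, had a value of 0.12 on that scale (edgeR adjusted p = 0.082). The calls of EID2 and ZNF780B were lost with DESeq2 (adjusted p = 0.13 and 0.074) and without 1 library in edgeR (adjusted p = 0.071 to 0.28 and 0.11 to 0.12).

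**Figure D4:**
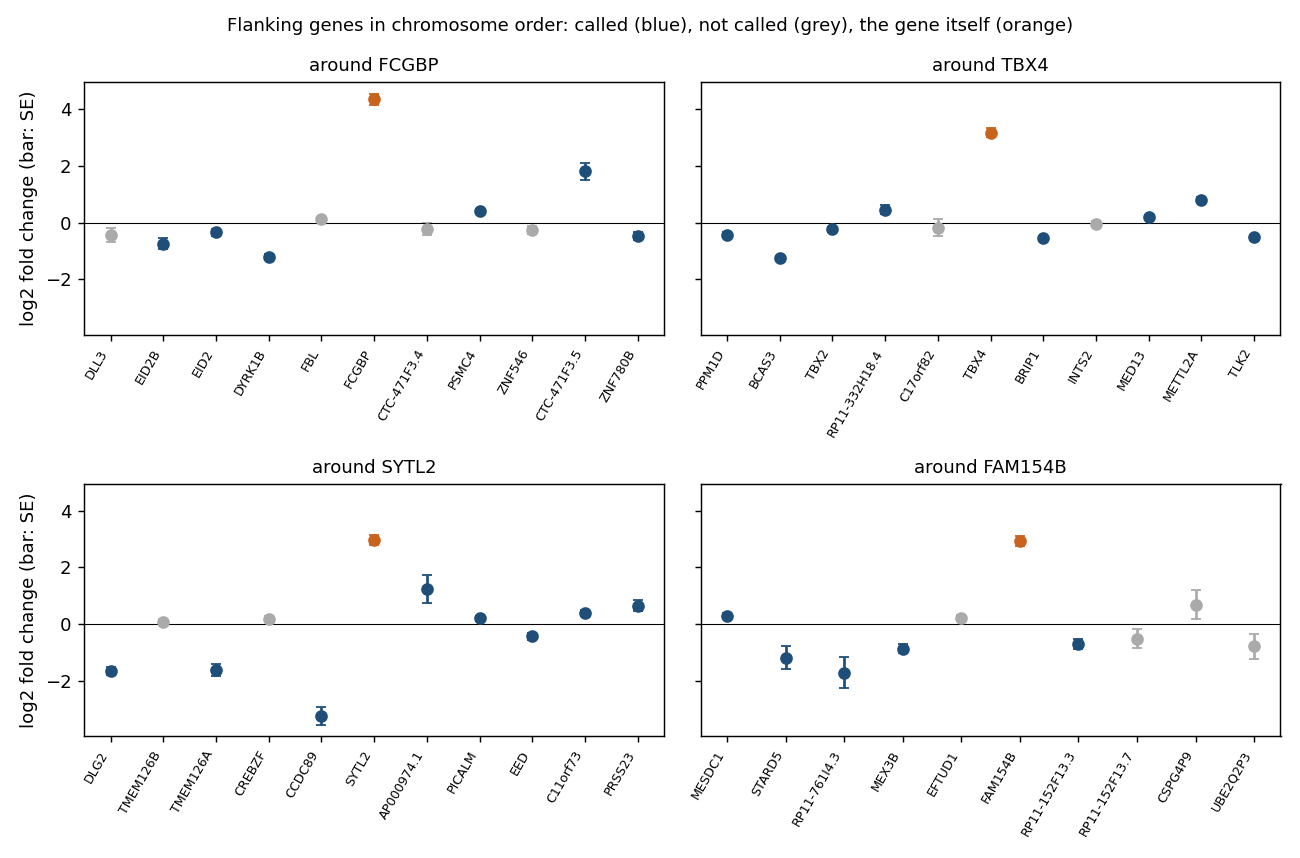
Log2 fold change (bar: SE) of each gene and of up to 5 of the nearest tested genes on each side, in chromosome order and evenly spaced. In each panel the gene at 2.94 or more, chosen for its large rise, stands above its flanks, whose values run from -3.24 to 1.81.

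Relatives of each gene by family or function went both ways. Of 41 mucus and von Willebrand D domain genes, 11 were tested, 4 rose, 4 fell and 3 did not pass, with a median of -0.25, beside a median of -0.00066 over all genes tested. That was 72.7% called, against 63.8% of all genes tested. MUC20, a membrane mucin, had 4 and 10 exon reads in DMSO and 83 and 74 in wogonin, a log2 value of 3.62. OVGP1, an oviduct glycoprotein, had 7 and 2 against 62 and 63 reads (log2 value 3.91). Both are among the 4 risers, but both passed the filter through the wogonin libraries alone and so had to be higher there, and MUC20 reads may be shared with near-identical pseudogene copies. TECTA, a von Willebrand D domain gene of the inner ear, rose by 1.77 and SSPO by 0.46. MUC15 fell from 244 to 82.6 CPM. MUC1 (log2 fold change -0.91) and OTOGL (-2.42) fell too. OTOGL passed the filter through DMSO alone, and its call was lost without DMSO 2 (edgeR adjusted p = 0.055). MUC2, the mucin that FCGBP is known to accompany, had 2 reads in 1 DMSO library and none elsewhere.

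Of 26 T-box genes and partners of limb and lung buds, 15 were tested, 1 rose, 8 fell and 6 did not pass (median -0.24), or 60% called against the 63.8% of all genes. The riser was TBX19, a pituitary T-box factor, with 21 and 19 exon reads in DMSO and 76 and 84 in wogonin (log2 fold change 2.15, edgeR adjusted p = 2.0e-06). TBX15 (log2 fold change -1.04) and TBX1 (-0.78) fell, and EOMES was at 2.04 CPM in both groups. TBX5, the forelimb counterpart of TBX4, had no read, nor had TBX3. Among the partners the stem cell factor SALL4 (-0.94) and the growth factor BMP4 (-3.65) fell, and BMP4 (18 and 27 reads in DMSO, 2 and 1 in wogonin) passed the filter through DMSO alone. PITX1, the hindlimb factor upstream of TBX4 in the embryo, fell by 0.46, a call lost without DMSO 1 (edgeR adjusted p = 0.058).

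Of 38 RAB27 effectors and vesicle docking genes, 27 were tested, 7 rose, 14 fell and 6 did not pass (median -0.36), or 77.8% called against 63.8%. SYTL2 was the only synaptotagmin-like gene of 5 with a higher value in wogonin. It was chosen for its rise, so nothing is read from that. SYTL4 (log2 fold change -0.98) and SYTL1 (-0.47) fell, and SYTL5 had no read. The SYTL1 call was lost with DESeq2 (adjusted p = 0.13) and in edgeR without DMSO 1 or wogonin 3 (adjusted p = 0.066 and 0.053). SYTL3 had a value of -0.90 (edgeR adjusted p = 0.064), which passed without wogonin 3 (edgeR adjusted p = 0.042). RAB27A, the GTPase that SYTL2 binds, rose from 19.9 ± 0.02 to 34.7 ± 0.63 CPM (SD, n = 2), a log2 difference of 0.80 ± 0.10 (SE), with an edgeR adjusted p = 3.9e-06. RAB27B had 3 reads in DMSO 1, 1 in wogonin 3 and none in the other libraries. The vesicle SNARE gene VAMP3 rose by 1.03 and the priming factor gene UNC13A by 0.91. EXPH5 (-1.84), another RAB27 effector, STXBP3 (-1.49) and RAB3B (-1.18) fell.

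Of 42 genes of stop-domain microtubule proteins and the ciliary axoneme, 23 were tested, 5 rose, 9 fell and 9 did not pass (median -0.07), or 60.9% called against 63.8%. With DESeq2 8 passed in place of 14. FAM154A, the closest relative of FAM154B, and MAP6 had no read. MAP6D1 stood at 0.50 on the log2 scale (edgeR adjusted p = 0.058), and at 0.63 without wogonin 3, where it was called higher. It was also called higher in unique exon, total gene and unique gene reads (edgeR adjusted p = 0.038, 0.0089 and 0.0033). CCDC40, needed to build motile axonemes, rose by 1.26. The dynein docking gene CCDC114 (-3.27) and the dynein assembly gene ZMYND10 (-2.07) fell, and CCDC114 passed the filter through DMSO alone. The intraflagellar transport genes IFT172 (-1.39) and IFT88 (-0.67) and the ciliary transcription factor gene RFX2 (-0.86) fell too.

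**Figure D5:**
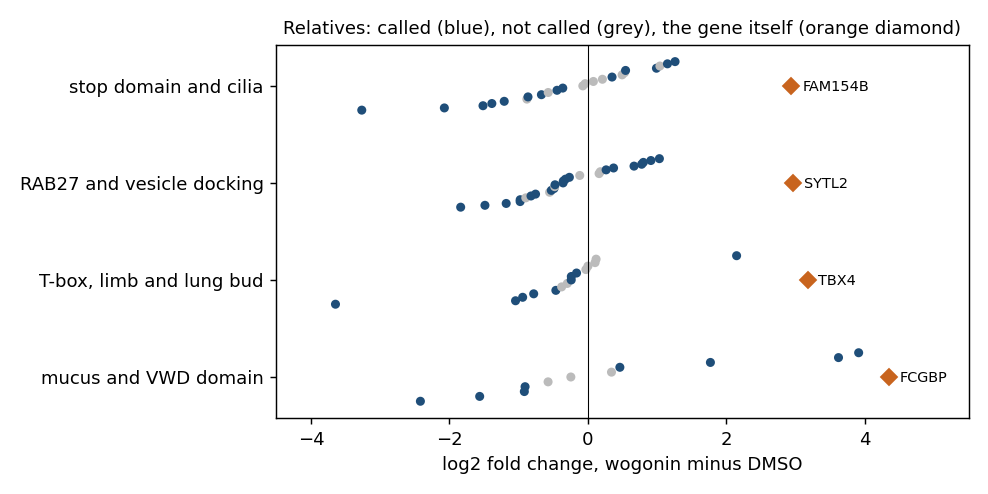
Log2 fold change of each tested relative (1 point per gene, blue where called) in 4 lists, with FCGBP, TBX4, SYTL2 and FAM154B as orange diamonds. Relatives fall on both sides of 0, and the highest, OVGP1 at 3.91, lies below FCGBP at 4.35.

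Genes with the most similar levels were ranked by the mean absolute difference in log2(CPM + 1) over the 4 libraries. The nearest to SYTL2 was FAM154B (0.15), followed by TBX4 (0.24) and TNXB (0.24). FAM154B had TNXB (0.15) and DPP7 (0.27) after SYTL2. TBX4 had SYTL2, SLFN5 (0.27) and FAM154B (0.30). FCGBP stood further off: TSPAN31 was nearest (0.29), then TNFRSF10D (0.68) and TBX4 (0.76). With 4 libraries in 2 groups this likeness is a description of level and fold change only.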

How the data were processed

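The authors deposited 1 table per library with whole-number counts of reads per gene in exons, on exon-exon junctions and in introns, each in total and as uniquely placed reads, per the file headers. Per the file headers, the deposited TPM and RPKM are scaled by exon length by the authors, and a fraction of unique and of intron reads is deposited too. RPKM and these fractions were not used. The submitters' processing notes name GRCh 37 and hg 19, and gene coordinates are those of the files. Not given in the sources used here are the aligner, counter, annotation release and handling of strand, so reads of overlapping opposite genes cannot be told apart.

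Total exon counts of 13449 genes were fitted with edgeR 4.0.16 in R 4.3.3 (filterByExpr with a minimum count of 10, TMM, robust quasi-likelihood, treatment as the only term, Benjamini-Hochberg over all genes, threshold 0.05). DESeq2 1.42.0 was an alternative. A few single genes that were tested are counted but not reported here. The test was checked on simulated counts. The genes, the relatives' lists, the flanking rule and the 7 marker lists were chosen with earlier results of these data known. The relatives named are up to 6 per list with the smallest adjusted p among those with a mean of at least 1 CPM; all called flanking genes and the 3 genes most like each gene are named too. Other relatives, flanking genes and markers named were chosen after their values were seen.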

Additional observations from a re-analysis of the deposited data

How the results depend on the processing

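The direction of all 4 genes was the same in 13 alternatives: 3 other scalings, 2 other filters, DESeq2, 3 other read classes and each library left out. Without 1 library at a time, the log2 fold change ran from 4.01 to 4.76 for FCGBP, 3.10 to 3.24 for TBX4, 2.74 to 3.19 for SYTL2 and 2.81 to 3.06 for FAM154B. The FAM154B value was 2.52 in total and in unique gene reads, which add its introns. Counts of called genes stayed within 1.5 times, except the microtubule and cilia list, with 14 called and 8 with DESeq2. Of 78 relatives and flanking genes called, 47 were called the same way in all 13, and 3 changed sign in some alternative: DLG2, RAB3C and RSPH9, in gene reads. The median over all tested genes was -0.09 when scaled by library totals or upper quartiles. No paired analysis was possible because the groups share no replicate number. With 27 to 44 reads per DMSO library, shares within a gene are imprecise there.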

Other observations

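DLG2, which flanks SYTL2, had 222 and 251 exon reads in DMSO and 63 and 72 in wogonin. Its intron reads numbered 8318 and 8907 in DMSO and 12232 and 11381 in wogonin, so exon and intron reads of the gene moved in opposite directions.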
